A study of Homo sapiens with 21 samples.

Results

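Ribosomal proteins are the protein parts of the cytosolic ribosome, and each of them is encoded in the nucleus, translated in the cytoplasm and assembled with ribosomal RNA in the nucleolus. Their mRNAs belong to the most abundant in a growing cell, and most begin with a C followed by a run of pyrimidines, the terminal oligopyrimidine (TOP) motif, through which mTORC1 and LARP1 control their translation and storage. When ribosome assembly is disturbed, RPL5 and RPL11 bind MDM2, the ubiquitin ligase of p53, which joins the family to the p53 pathway, and the paralogue RPS27L is itself a p53 target gene.

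The genes described here were the rows of the expression table whose symbol names a ribosomal protein of the large subunit (RPL, RPLP) or the small subunit (RPS, RPSA) and whose values varied between libraries. The symbol rule found 82 genes, of which 79 varied (48 of the large and 31 of the small subunit), among 19694 varying genes and 23368 genes listed. The other 3, among them RPL10L, were listed at 0 in every library and were not tested. RNA was sequenced from hTERT-HPNE, a line of human pancreatic duct cells immortalised with telomerase, in 7 groups of 3 biological replicates: untreated cells taken at 0 h, cells 4, 8 and 24 h after 300 µM H2O2, an oxidant, and cells 4, 8 and 24 h after 400 ng/ml neocarzinostatin (NCS), a radiomimetic drug that breaks both DNA strands. Medium was exchanged when a drug was added and no untreated library was taken at a later time, so against untreated cells the drug cannot be told apart from time in fresh medium, whereas H2O2 and NCS were compared at equal times.

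The values were rLog values, log2 read counts that DESeq2 scales between libraries and shrinks for low counts, so read depth is unknown. Levels of different genes were used coarsely, to separate abundant from weakly detected genes, to read markers and to sum the family. Library medians over the varying genes lay between 7.14 and 7.19, and 0 of 210 pairs of libraries held identical values. The mesenchymal markers of this line were high in untreated cells (VIM 17.05, FN1 20.13, NES 12.12), and of the duct keratins KRT18 was at 11.64 and KRT19 at 0.60, so a duct identity rests on few of its markers. EPCAM was at -1.76 and CFTR at -1.34, the leukocyte gene PTPRC was at 0.94 and the endothelial gene CDH5 at -2.04. Levels of the other listed markers are not given here, and some of them changed. At 24 h of NCS the leukocyte gene CD68 differed from untreated cells by 0.52 and PTPRC by -0.013. At 4 h of H2O2 the endothelial gene PECAM1 differed by 0.33 and CDH5 by 0.0018. Low PTPRC and CDH5 alone therefore do not show that all markers of these lists were silent. Of the 6 mesenchymal markers 2 rose and 4 fell at 4 h of H2O2, all 6 fell at 24 h of H2O2, and 2 rose and 2 fell at 24 h of NCS, while of 9 duct markers 3 rose and 0 fell at 4 h of H2O2. The part of these changes in the results below was not tested.

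The start of the transcript carries the TOP motif. For picked genes, 30 bases around the annotated start (10 before it and 20 from it on) are shown. They are the stalk genes RPLP0 and RPLP2, RPS6, genes among the largest increases described below, and RPS27 and RPS27L, which differ in the motif. Of the genes shown only RPS27L lacks the motif, whereas 17 of the 63 genes with a window do. The sequences are those of RefSeq on GRCh38.p14, 5′ to 3′ on the strand of the gene, and capitals mark the pyrimidine run that begins with a C at the start.
RPLP0: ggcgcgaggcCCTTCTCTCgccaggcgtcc
RPLP2: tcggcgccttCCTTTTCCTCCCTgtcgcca
RPS6: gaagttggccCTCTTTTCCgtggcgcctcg
RPS12: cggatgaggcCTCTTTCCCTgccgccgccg
RPS19: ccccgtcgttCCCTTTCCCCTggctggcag
RPS21: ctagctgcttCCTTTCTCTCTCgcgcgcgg
RPL13A: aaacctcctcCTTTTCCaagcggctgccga
RPL39: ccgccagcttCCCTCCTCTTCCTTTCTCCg
RPS27: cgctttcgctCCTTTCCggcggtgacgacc
RPS27L: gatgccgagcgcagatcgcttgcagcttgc

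These windows lie at chr12:120201092-120201121 (minus strand, RPLP0), chr11:809957-809986 (plus, RPLP2), chr9:19380217-19380246 (minus, RPS6), chr6:132814559-132814588 (plus, RPS12) and chr19:41860245-41860274 (plus, RPS19). The others lie at chr20:62387093-62387122 (plus, RPS21), chr19:49487598-49487627 (plus, RPL13A), chrX:119791611-119791640 (minus, RPL39), chr1:153990752-153990781 (plus, RPS27) and chr15:63157458-63157487 (minus, RPS27L). The run is 19 bases long in RPL39, 13 in RPLP2 and 7 in RPS27, and RPS27L has none at its annotated start. A start window was found for 63 of the 79 genes, matched by symbol. A C at the start followed by at least 4 pyrimidines was present in 46 of the 63 (73.0%), against 5.14% of the 27305 symbols with a window and 6.74% of the 12579 varying genes with one. The letters CCGGAAG, the core recognised by ETS factors, were searched on both strands of the 300 bases from 250 before to 50 after the start and were present in 36.5% of the 63 genes, 12.2% of all symbols and 17.6% of the varying genes.

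After 4 h of H2O2 nearly the whole family rose together by a small amount. Of the 79 genes 74 were higher than in untreated cells and only RPL36A was lower (limma, adjusted p under 0.05 over all varying genes), whereas 26.2% of all varying genes were higher and 19.7% lower. The median log2 difference of the family was 0.16, a rise of 11.4% on the linear scale, beside 0.0038 over all genes. The increase was even: the 73 genes with a mean rLog of at least 10 were all among the 74, and their log2 differences ran from 0.089 for RPL22 to 0.25 for RPS21. Among the 4562 other genes with a mean of at least 10, 26.6% were higher and 35.0% lower. In 75 of the 79 genes the 3 treated and the 3 untreated libraries did not overlap, in either direction, which was so for 49.5% of all varying genes. The study set a limit of an absolute log2 fold change over 1 with adjusted p under 0.05 on the output of DESeq2. Applied here to rLog differences and limma, it was passed by no gene of the family in this or any other comparison. In this comparison 0.696% of all genes passed it, and such shares are not the study's own calls.

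The median level of the 73 abundant genes shows the shift library by library. In untreated cells it was 13.22, 13.27 and 13.31 from the lowest to the highest library, and after 4 h of H2O2 it was 13.40, 13.41 and 13.43. After 8 h of H2O2 it was 13.35, 13.42 and 13.45. After 4 h of NCS it was 13.32, 13.34 and 13.34, and after 8 h of NCS 13.30, 13.32 and 13.32. The lowest library of either early H2O2 group and of NCS at 4 h was above the highest untreated library, and the lowest H2O2 library was above the highest NCS library at each of these times. The summed back-transformed values of the family made up 3.30 to 3.44% of each untreated library's sum, 3.74 to 3.79% after 4 h, 3.65 to 3.88% after 8 h and 3.69 to 3.79% after 24 h of H2O2. With NCS the shares were 3.44 to 3.51%, 3.45 to 3.56% and 3.51 to 3.63% in the same order, so the 4 h NCS libraries alone overlapped with the untreated ones.

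**Figure D1:**
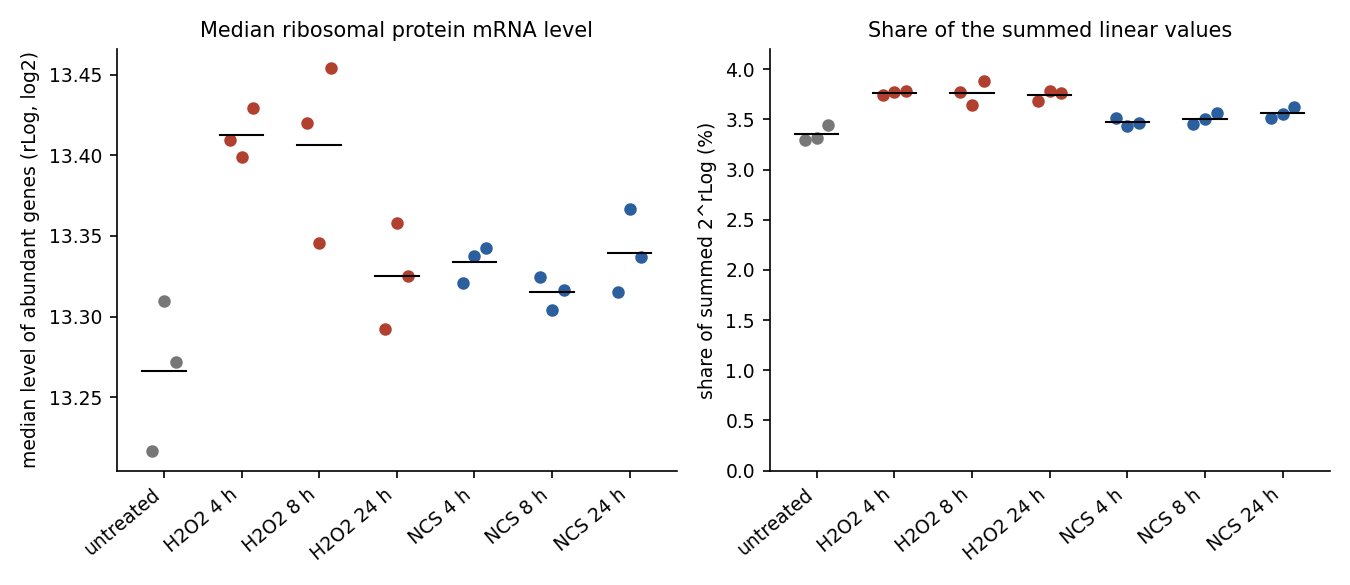
Median rLog (log2) level of the 73 abundant ribosomal protein genes in each library (left) and their family's share of the summed back-transformed values in percent (right), with 1 point per library, replicates 1 to 3 from left to right, and a bar at the group mean. The H2O2 libraries of 4 h and 8 h and the NCS libraries of 4 h and 24 h lie above the highest untreated library at 13.31, and those of 4 h and 8 h of H2O2 also lie above the NCS libraries of the same time.

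Both subunits and the stalk took part. Of the 45 large-subunit genes 41 rose and 1 fell (median log2 difference 0.15), of the 31 small-subunit genes 30 rose (median 0.19), and all 3 stalk genes rose. The stalk proteins RPLP0, RPLP1 and RPLP2 recruit the elongation factors to the ribosome. RPLP2 was at 12.84, 12.83 and 12.92 in the untreated libraries and at 13.07, 13.15 and 13.08 after 4 h of H2O2, a log2 difference of 0.23 (SE 0.034, adjusted p = 1.74e-05, limma). RPLP1 rose by 0.21 and RPLP0 by 0.13. RPLP0 is a common reference gene for quantitative PCR, and its 3 values of 15.17, 15.21 and 15.19 did not overlap with the untreated 15.04, 15.02 and 15.12.

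Among the small-subunit genes, RPS21 went from 11.57, 11.60 and 11.73 to 11.90, 11.85 and 11.91, with a log2 difference of 0.25 (SE 0.048, adjusted p = 0.00026, limma). RPS19, in which loss of 1 copy causes Diamond-Blackfan anaemia, went from 13.42, 13.47 and 13.58 to 13.71, 13.74 and 13.74, a difference of 0.24 (SE 0.052). Both groups were separate in both genes. RPS6, the target of S6 kinase, rose by 0.19, RPS28 by 0.23, RPS4X by 0.12 and RPSA, also known as the laminin receptor, by 0.13. RPS27A is made as a fusion with ubiquitin and rose by 0.20 (adjusted p = 0.00291, limma).

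The ribosomal proteins known to bind MDM2 moved with the rest. RPL5 was at 13.84, 13.83 and 13.88 in untreated cells and at 14.00, 14.02 and 14.01 after 4 h of H2O2 (log2 difference 0.16, SE 0.028, adjusted p = 0.00011, limma). RPL11 went from 13.63, 13.65 and 13.61 to 13.77, 13.76 and 13.81 (0.15, SE 0.021). Neither gene's groups overlapped. RPL23, at 13.57 in each untreated library, stood at 13.74, 13.71 and 13.72. RPL26 and RPS7 each rose by 0.15.

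After 8 h of H2O2, 68 of the 79 genes were higher and 0 lower, against 18.8% and 18.6% of all genes (74 of the 79 had an unadjusted p under 0.05, in limma), and the median log2 difference was 0.14. At the limit of a log2 difference over 1, 0.518% of all genes were called and no gene of the family. Fitted on the compared groups alone, 38 genes were higher. The groups were separate in 56 of the 79 genes and in 42.0% of all varying genes, and without H2O2 8 h replicate 1 there was 1 lower gene. RPL13A, whose introns host several small nucleolar RNAs, reached 11.55, 11.36 and 11.52 from 11.14, 11.15 and 11.20, a log2 difference of 0.31 (SE 0.039, adjusted p = 4.02e-06, limma). RPS19 was 0.26 and RPL10 0.20 higher than in untreated cells.

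**Figure D2:**
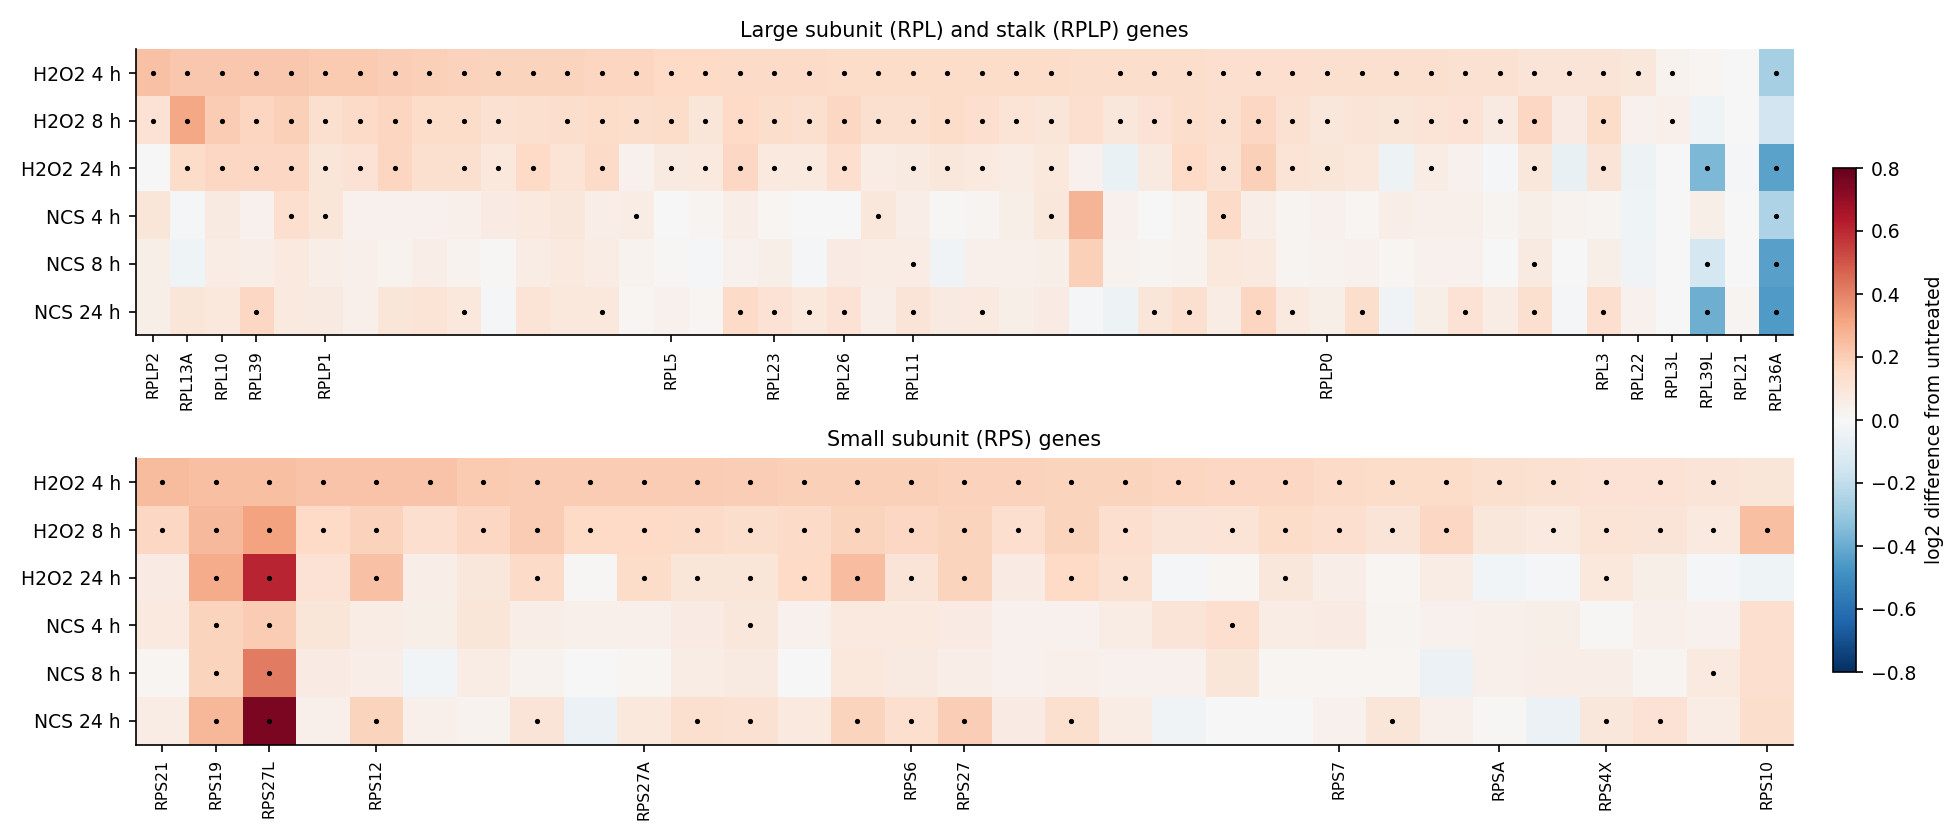
Log2 difference from untreated cells of all 79 ribosomal protein genes (columns, large subunit and stalk above, small subunit below, from the largest to the smallest difference at 4 h of H2O2, with some columns named) in the 6 treated groups (lines of the grid), red for higher and blue for lower on a scale from -0.8 to 0.8. A dot marks an adjusted p under 0.05, and dots fill 75 of the 79 columns at 4 h of H2O2 and 11 at 4 h of NCS.

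Few of the genes were called with NCS in the first hours. At 4 h 10 of the 79 genes were higher and 1 was lower than in untreated cells, that is 12.7% and 1.27% of the family beside 7.47% and 9.72% of all genes, with a median log2 difference of 0.045. At 8 h 5 were higher and 2 lower, 6.33% and 2.53% of the family beside 10.5% and 13.3% of all genes, with a median of 0.036. The share of higher genes was thus near that of all genes at both times. The log2 difference was positive, called or not, in 72 of the 79 genes at 4 h and in 67 at 8 h. At 4 h the median over all genes was -0.0003. Simulated data held 100 genes changed by 0.15 and 100 by 0.5 among 19694, at 4 h of H2O2, and the test called 69 of the former. Far larger shares of genes were called here, so those 69 do not give the share of such changes found with NCS. At 4 h of NCS the smallest called rise was 0.058 (RPL24), while RPLP2 at 0.098 was not called (adjusted p = 0.0576, limma). With the limit of a log2 difference over 1, 0.218% of all genes were called at 4 h and 0.340% at 8 h, and none of the family.

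The genes that rose with NCS at 4 h included RPS27L (0.21), RPS19 (0.17), RPL36 (0.16) and RPS9 (0.13). At 8 h they were RPS27L (0.42), RPS19 (0.18), RPS26 (0.075), RPL10A (0.070) and RPL11 (0.060). RPS19 read 13.68, 13.66 and 13.64 at 4 h and 13.61, 13.67 and 13.73 at 8 h, above its highest untreated value of 13.58 each time. The counts depended on single libraries. Without untreated replicate 1 the higher genes at 4 h numbered 2 and at 8 h 1, and without untreated replicate 2 there were 5 at 4 h. They numbered 3 without NCS 4 h replicate 1 and 6 without replicate 3, and at 8 h 9 without untreated replicate 3 and 2 without either NCS 8 h replicate 2 or replicate 3. RPL36A, the only gene lower at 4 h, was not called without untreated replicate 3 or NCS 4 h replicate 2. The count of lower genes at 8 h was 1 without untreated replicate 2 or NCS 8 h replicate 2. With the medians of abundant genes aligned between libraries, 47 genes were higher at 4 h and 37 at 8 h.

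Compared at the same time, the family was higher after H2O2 than after NCS. At 4 h 58 of the 79 genes were higher and 0 lower with H2O2, against 26.3% and 18.0% of all genes, and the median log2 difference was 0.11 (63 genes had an unadjusted p under 0.05, in limma). The groups were separate in 72 of the 79 genes and in 50.1% of all varying genes, and 0.574% of all genes passed a log2 difference of 1. At 8 h 46 were higher and 0 lower against 18.7% and 15.4% of all genes, with a median of 0.095 and an unadjusted p under 0.05 in 60 genes (limma), and 0.162% of all genes passed a log2 difference of 1. The count at 8 h fell to 28 without H2O2 8 h replicate 3 and to 29 without NCS 8 h replicate 1 or without replicate 2, it was 29 after quantile normalization, and 18 with a fit on the compared groups alone.

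RPL13A had the largest difference between the drugs at both times. After 4 h of NCS it read 11.19, 11.13 and 11.14, and after 8 h 11.09, 11.12 and 11.17, near its untreated values of 11.14 to 11.20. The H2O2 minus NCS difference was 0.23 at the earlier time (SE 0.039, adjusted p = 0.000108, limma) and 0.35 at the later (adjusted p = 1.73e-06). The libraries of the drugs did not overlap at either time. At 4 h RPS29 (0.18), RPL39 (0.18), RPS21 (0.17) and RPL35A (0.17) followed, and at 8 h RPL36A (0.28), RPS15A (0.21), RPL27 (0.17) and RPS13 (0.17). RPL5 was at 13.90, 13.83 and 13.84 after 4 h of NCS, 0.16 below H2O2 (adjusted p = 0.000136, limma).

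At 24 h part of the family was higher than in untreated cells with both drugs. With H2O2 44 genes were higher and 2 lower (20.2% and 19.9% of all genes, median log2 difference 0.086), and with NCS 30 were higher and 2 lower (19.6% and 18.4% of all genes, median 0.075). As shares of the family these were 55.7% higher and 2.53% lower after H2O2, and 38.0% and 2.53% after NCS. Among the 4562 other genes with a mean rLog of at least 10, 29.4% were higher and 39.8% lower after H2O2. After NCS 34.7% of those were higher and 33.8% lower, so with NCS the family's share of higher genes was near theirs. The 2 lower genes were RPL36A and RPL39L with both drugs. With the limit of a log2 difference over 1, 1.61% of all genes were called after H2O2 and 1.50% after NCS. The H2O2 count was 28 without untreated replicate 1 and 29 without untreated replicate 2, and the NCS count was 52 with the medians of abundant genes aligned. After quantile normalization the median for H2O2 was 0.13. The median level of the abundant genes was 13.29, 13.33 and 13.36 after H2O2 and 13.32, 13.34 and 13.37 after NCS, so the libraries of the drugs overlapped and the lowest H2O2 library lay below the highest untreated one, whereas all NCS libraries lay above it. The share of the summed values, 3.69 to 3.79% after H2O2, was above the untreated 3.30 to 3.44% in every library.

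Both drugs were set against the same untreated libraries. Behind RPS27L, the largest increases at 24 h of H2O2 were those of RPS19 (0.30), RPS18 (0.25), RPS12 (0.23) and RPL12 (0.19), and at 24 h of NCS those of RPS19 (0.27), RPS27 (0.20), RPS12 (0.18) and RPS18 (0.18). RPS12 read 13.56, 13.63 and 13.70 after H2O2 and 13.57, 13.55 and 13.61 after NCS, all above its highest untreated value of 13.48. RPS19 was the gene besides RPS27L that was higher in each of the 6 treated groups.

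Set directly against each other at 24 h, the drugs differed in few of the genes. RPL15 and RPL18 were higher after H2O2, and 8 genes were lower, among them RPL21, RPL27A, RPL41, RPS10, RPS24, RPS26 and RPS27L, that is 2.53% and 10.1% of the family beside 11.0% and 10.9% of all genes. The median log2 difference was 0.018, and 0.0152% of all genes passed a log2 difference of 1. RPL18 was at 0.096 (SE 0.029, adjusted p = 0.0218, limma) and RPL27A, also of the large subunit, at -0.078 (adjusted p = 0.0133). The lower genes numbered between 2 and 5 in each fit that left out 1 of the 6 libraries compared, which ranged over H2O2 24 h replicates 1 to 3 and NCS 24 h replicates 1 to 3. After quantile normalization 23 genes were higher and 3 lower, with a median of 0.061.

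Within the H2O2 course 39 genes fell from 4 h to 24 h and 1 rose, against 32.4% and 23.1% of all genes (1.51% with a log2 difference over 1), and the median log2 difference was -0.074. RPLP2 returned to 12.84, 12.91 and 12.86, 0.23 below its level at 4 h (SE 0.034, adjusted p = 1.2e-05, limma) and within the range of the untreated libraries. RPL23A (-0.20), RPS16 (-0.19), RPS15 (-0.19) and RPL39L (-0.37) fell as well, and RPS27L was the gene that rose. This decline is sensitive to scaling: after quantile normalization 12 genes fell and 12 rose with a median of -0.0050, and RPLP0 and RPS27 then had differences of 0.15 and 0.096 in place of -0.032 and -0.0044. Without H2O2 24 h replicate 1, 2 genes rose.

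In the NCS course 18 genes were higher and 10 lower at 24 h than at 4 h, with a median of 0.029. These were 22.8% and 12.7% of the family, beside 19.5% and 18.8% of all genes (1.03% with a log2 difference over 1). Among other genes with a mean rLog of at least 10, 36.4% were higher and 32.8% lower. The family's share of higher genes was thus near that of all genes, and its share of lower genes was below it. RPS27L (0.55), RPS27 (0.13), RPL39 (0.13), RPL34 (0.12) and RPL26 (0.12) rose most, and RPL39L (-0.44), RPL17 (-0.28), RPL36A (-0.20), RPS15 (-0.13) and RPS9 (-0.13) fell most. Without NCS 24 h replicate 3 the higher genes numbered 11. The lower genes numbered 2 without NCS 4 h replicate 1 or NCS 24 h replicate 1, 6 without NCS 4 h replicate 2 and 5 without NCS 4 h replicate 3, and with library medians aligned 31 genes were higher.

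The change of the difference between the drugs was tested as an interaction. From 4 h to 24 h the H2O2 minus NCS difference went down in 32 of the 79 genes and up in 0. Among all genes it went down in 22.7% and up in 16.6%. In the family 39 genes had an unadjusted p under 0.05 (limma), and the median change was -0.097. RPL22 changed by -0.19 (SE 0.039, adjusted p = 0.000609, limma) and RPL39 by -0.18. After quantile normalization the difference went down in 6 genes and up in 5, with a median change of -0.017.

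RPS27L, like RPS19, was higher than in untreated cells at every time with both drugs, and its differences at 24 h were the largest of the family. In the untreated libraries it was at 11.35, 11.35 and 11.26. With H2O2 the 4 h libraries read 11.57, 11.48 and 11.63, those of 8 h 11.66, 11.62 and 11.65, and those of 24 h 11.90, 11.94 and 11.94. With NCS the 4 h libraries read 11.50, 11.48 and 11.60, those of 8 h 11.73, 11.74 and 11.74, and those of 24 h 12.10, 12.04 and 12.08. No treated library reached down to an untreated one. The log2 differences from untreated cells were 0.24, 0.32 and 0.61 after H2O2 and 0.21, 0.42 and 0.75 after NCS (SE 0.036 each), with adjusted p values in limma from 0.00038 at 4 h of NCS to 3.51e-12 at 24 h of NCS. At 24 h it was 0.14 lower after H2O2 than after NCS (adjusted p = 0.00629, limma), and at 4 h the difference between the drugs was 0.035 (adjusted p = 0.471).

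RPS27, the close paralogue of RPS27L, is a conventional small-subunit gene with a TOP start. It was at 12.78, 12.72 and 12.79 in untreated cells, at 12.92, 12.96 and 12.97 after 4 h of H2O2, and at 12.90, 12.97 and 12.96 after 24 h. With NCS the 4 h libraries gave 12.84, 12.81 and 12.83, those of 8 h 12.79, 12.83 and 12.83, and those of 24 h 12.95, 12.91 and 13.01. RPS27 thus followed the family in rising by 0.19 at 4 h of H2O2, and with NCS it was called only at 24 h, at 0.20 (adjusted p = 9.97e-06, limma).

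The difference RPS27L minus RPS27 within a library is not moved by a shift of the whole library. It was -1.43, -1.37 and -1.53 in untreated cells. With H2O2 the 4 h libraries gave -1.35, -1.48 and -1.34, those of 8 h -1.28, -1.29 and -1.33, and those of 24 h -0.996, -1.03 and -1.02. With NCS they gave in the same order -1.35, -1.32 and -1.23, then -1.07, -1.09 and -1.09, then -0.86, -0.88 and -0.93. The change from untreated was 0.056 at 4 h of H2O2, where the libraries overlapped (two-sided exact permutation p = 0.5). It was 0.14 at 8 h and 0.43 at 24 h of H2O2, and 0.14, 0.36 and 0.55 at 4, 8 and 24 h of NCS, all without overlap and with an exact permutation p of 0.1, the smallest that 3 against 3 libraries can give. H2O2 was lower than NCS, with differences of -0.22 (8 h) and -0.13 (24 h), again without overlap (exact permutation p = 0.1). At 4 h the difference was -0.087 with overlap (exact permutation p = 0.2).

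**Figure D3:**
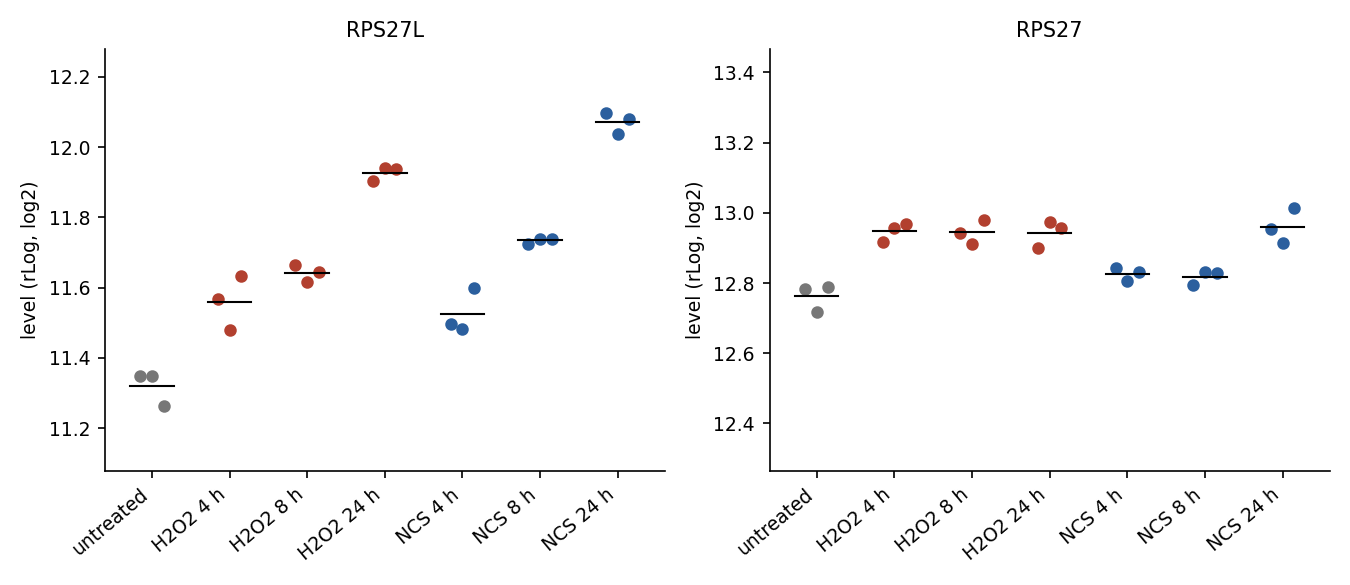
rLog (log2) level of RPS27L and its paralogue RPS27 in each library (1 point per library, replicates 1 to 3 from left to right, bar at the group mean), both on axes that span the same number of log2 units. RPS27L rises from 11.26 to 11.35 in untreated cells to 12.04 to 12.10 at 24 h of NCS, while RPS27 stays between 12.72 and 13.01.

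MDM2, another p53 target and the ligase that RPL5 and RPL11 bind, had a different course from RPS27L. It was 0.79, 1.39 and 1.23 above untreated cells at 4, 8 and 24 h of H2O2 and 1.55, 1.13 and 0.99 above at 4, 8 and 24 h of NCS. From 4 h to 24 h of NCS MDM2 was therefore 0.56 lower, in the same libraries in which RPS27L was 0.55 higher.

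RPL39L and RPL36A went against the family. RPL39L, a paralogue of RPL39 known for its expression in the testis, was at 7.74, 7.77 and 7.72 in untreated cells and at 7.74, 7.79 and 7.74 after 4 h of H2O2. At 24 h it was at 7.35, 7.34 and 7.45 after H2O2 and at 7.43, 7.30 and 7.31 after NCS, well below every untreated library. Its log2 differences were -0.36 (SE 0.041, adjusted p = 9.16e-07, limma) and -0.39 (adjusted p = 2.87e-07), and at 8 h of NCS -0.14. RPL39 itself moved the other way, from 12.05, 11.96 and 12.10 to 12.16, 12.17 and 12.27 at 24 h of H2O2 (0.16, adjusted p = 0.00494) and to 12.25, 12.12 and 12.24 at 24 h of NCS (0.17, adjusted p = 0.00472).

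RPL36A was at 6.55, 6.59 and 6.64 in untreated cells. With H2O2 the 4 h libraries read 6.38, 6.35 and 6.26, those of 8 h 6.59, 6.38 and 6.35, and those of 24 h 6.16, 6.19 and 6.16. After 24 h of NCS they read 6.16, 6.16 and 6.11. It was called lower in 5 of the 6 treated groups, from -0.25 at 4 h of NCS to -0.45 at 24 h of NCS (SE 0.067), and at 8 h of H2O2 1 library lay within the untreated range (adjusted p = 0.0801, limma). Its near-identical paralogue RPL36AL, which the symbol rule does not take in, was at 11.65, 11.63 and 11.60 in untreated cells and 11.46, 11.48 and 11.42 at 24 h of H2O2 (-0.17, adjusted p = 8.13e-05, limma), whereas at 24 h of NCS it was at 11.64, 11.69 and 11.69.

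**Figure D4:**
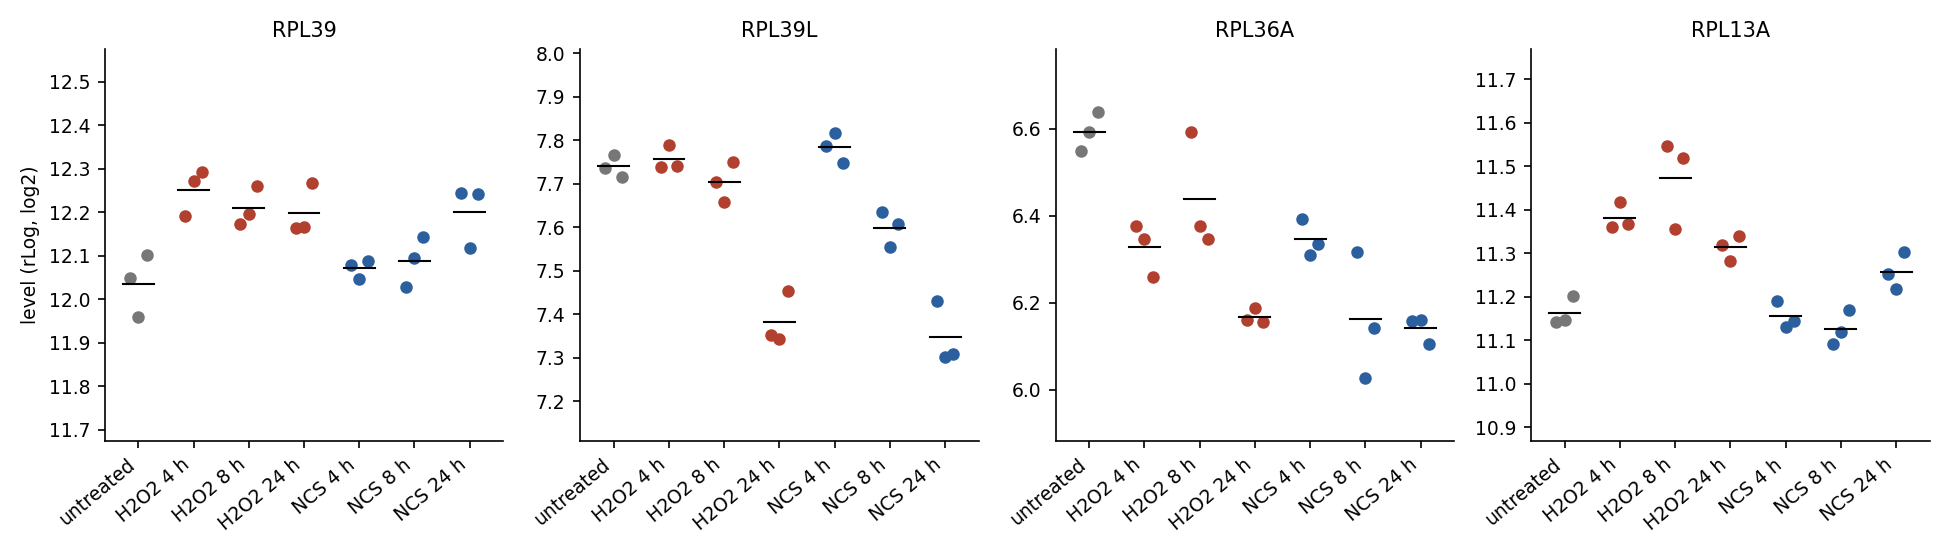
rLog (log2) level of RPL39, RPL39L, RPL36A and RPL13A in each library (1 point per library, replicates 1 to 3 from left to right, bar at the group mean), each panel spanning the same number of log2 units. RPL39L and RPL36A end at 7.30 to 7.45 and 6.11 to 6.19 at 24 h, below untreated cells, while RPL13A is highest at 8 h of H2O2.

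The genes not called higher at 4 h of H2O2 were among the weakly detected ones. Apart from RPL39L and RPL36A, those with a mean rLog under 10 were RPL17, RPS10, RPL21 and RPL3L. RPL17 was at 7.44, 7.78 and 7.81 in untreated cells and 7.79, 7.88 and 7.79 after 4 h of H2O2, and RPS10 at 6.18, 6.31 and 6.28 against 6.22, 6.44 and 6.40, so the libraries overlapped in both. RPL21 lay between -1.05 and -0.9995 in every library. RPL3L, a paralogue of RPL3 known from heart and skeletal muscle, was at -0.81 in each untreated library and between -0.79 and -0.75 after 4 h and 8 h of H2O2, a change of 0.030 and 0.040 that passed the test at a level near that of no reads. RPL3 was near 14.87 in untreated cells and rose by 0.10 at 4 h of H2O2.

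Several of these low values are uncertain as measures of the genes. The table also lists the readthrough symbols RPL17-C18ORF32, RPL36A-HNRNPH2 and RPS10-NUDT3, which overlap the genes of the same name, and the copy RPL21P28, and each of these 4 symbols is at 0 in every library. How reads that fit more than 1 of these features were counted is not stated, so their part in the levels of RPL17, RPL36A, RPS10 and RPL21 was not tested.

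The genes with and without the TOP motif at the annotated start had median changes close to each other. At 4 h of H2O2 the median log2 difference was 0.17 over the 46 genes with it and 0.15 over the 17 without, and 43 and 16 of them were higher. At 8 h the medians were 0.14 and 0.14, and at 24 h 0.092 and 0.092. With NCS at 24 h they were 0.082 and 0.074. These medians are descriptions, and 16 of the 79 genes had no window.

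Other parts of the translation machinery moved in part with the family. Of 7 listed ribosomal proteins that the symbol rule does not reach, 5 rose at 4 h of H2O2 and 0 fell, among them FAU (0.17, adjusted p = 0.00043, limma), made as a fusion with a ubiquitin-like protein. GNB2L1, which encodes the scaffold RACK1 of the small subunit, was higher at 8 h (0.16) and 24 h of H2O2 (0.17). Of 16 other TOP mRNAs for translation factors and related proteins, 13 rose and 0 fell at 4 h of H2O2, 11 rose and 0 fell at 8 h, and 9 rose and 3 fell at 24 h. With NCS 2 rose and 1 fell at 4 h, 1 rose and 3 fell at 8 h, and 10 rose and 4 fell at 24 h, and the background shares are those given above for each comparison.

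TPT1, a TOP mRNA, was high after 4 h of H2O2 and 24 h of NCS and not after 4 h of NCS. It was at 14.73, 14.74 and 14.71 in untreated cells, 14.93, 14.89 and 14.93 after 4 h of H2O2, 14.73, 14.72 and 14.75 after 4 h of NCS, and 14.90, 14.90 and 14.88 after 24 h of NCS. The elongation factor EEF2 rose by 0.19 at 4 h of H2O2 (adjusted p = 4.49e-05, limma) and by 0.12 at 4 h of NCS. At 24 h NPM1, a nucleolar chaperone, and HNRNPA1, an RNA-binding protein, were lower with both drugs, NPM1 by -0.30 after H2O2 and -0.31 after NCS, and HNRNPA1 by -0.32 and -0.36.

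Most of the factors that build ribosomes fell at 24 h. Of 54 ribosome biogenesis factors 16 rose and 15 fell at 4 h of H2O2, 26 rose and 1 fell at 8 h, and 2 rose and 38 fell at 24 h, with median log2 differences of 0.030, 0.086 and -0.20. With NCS 7 rose and 2 fell at 4 h, 3 rose and 17 fell at 8 h, and 2 rose and 44 fell at 24 h, with medians of 0.030, -0.042 and -0.25. At 8 h, 41 of them were higher and 1 lower after H2O2 than after NCS, beside 18.7% and 15.4% of all genes. The shares of all genes against untreated cells are those given above.

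Nucleolin (NCL), a main nucleolar protein, was at 14.26, 14.32 and 14.25 in untreated cells, 13.70, 13.72 and 13.69 at 24 h of H2O2 and 13.73, 13.77 and 13.73 at 24 h of NCS, a fall of 0.57 and 0.53 on the log2 scale (SE 0.022, adjusted p = 1.89e-13 and 5.25e-13, limma). Fibrillarin (FBL), the methyltransferase of ribosomal RNA, went from 11.12, 11.10 and 11.19 to 10.66, 10.61 and 10.71 with H2O2 and to 10.42, 10.41 and 10.54 with NCS. In these libraries, 44 and 30 of the ribosomal protein genes were higher than in untreated cells. RRP12, which helps to export ribosomal subunits, was 1 of the 2 factors that rose at 24 h of H2O2, with an increase of 0.50 at 8 h of H2O2 (adjusted p = 8.24e-09, limma) and of 0.23 at 24 h.

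Of 15 genes of RNA polymerase I and its factors, which transcribe the large ribosomal RNA precursor, 2 rose and 11 fell at 4 h of H2O2, 7 rose and 3 fell at 8 h, and 2 rose and 7 fell at 24 h. With NCS 2 rose and 0 fell at 4 h, 1 rose and 4 fell at 8 h, and 1 rose and 9 fell at 24 h. The shares of all genes are those given above for each comparison. POLR1A, the largest subunit, was at 11.09, 11.18 and 11.15 in untreated cells, 10.68, 10.76 and 10.66 at 4 h of H2O2 and 11.21, 11.21 and 11.29 at 8 h, a log2 difference of -0.44 at 4 h (SE 0.031, adjusted p = 1.84e-09, limma). Of the 76 mitochondrial ribosomal protein genes, whose products form a separate ribosome, 10 were higher and 10 lower at 4 h of H2O2. Among all genes 26.2% were higher and 19.7% lower, larger shares than in this list, whose median was 0.023. At 24 h 10 were higher and 27 lower after H2O2 (20.2% and 19.9% of all genes). After NCS 10 were higher and 26 lower (19.6% and 18.4% of all genes).

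**Figure D5:**
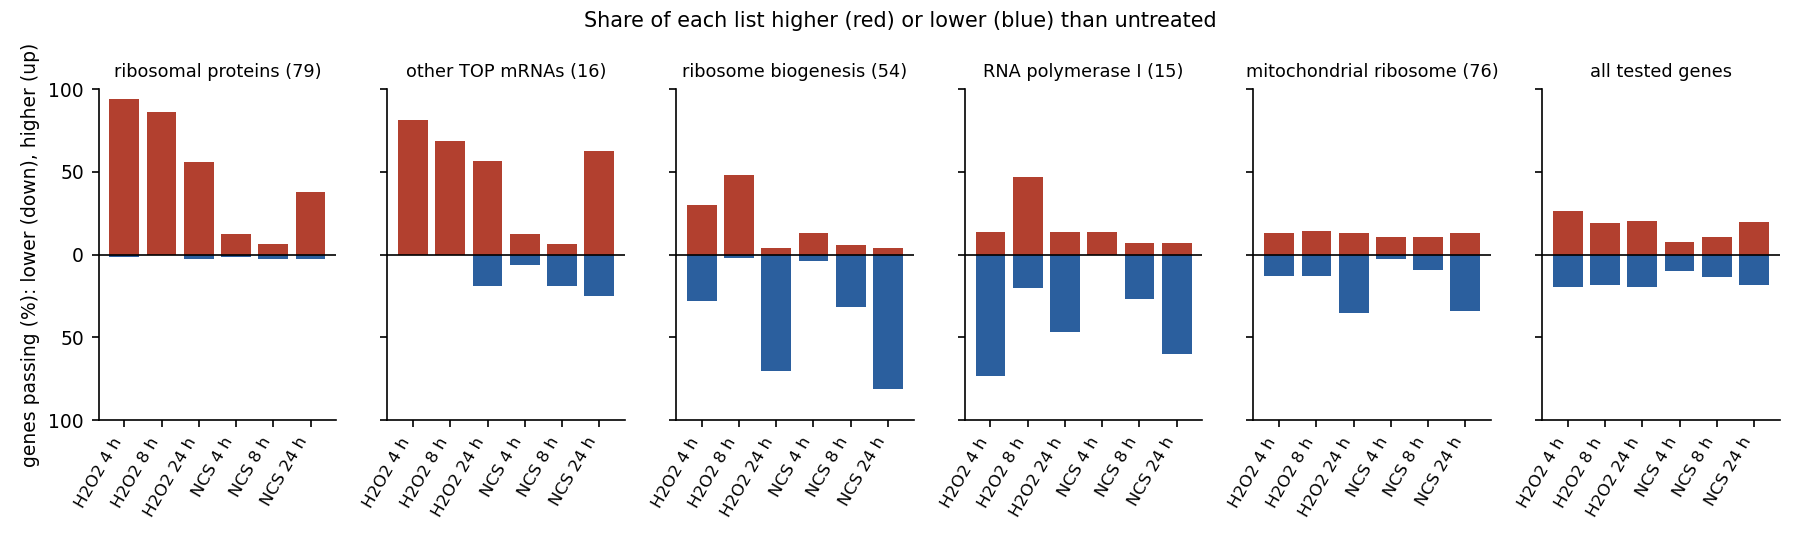
Share of each gene list (percent of its varying genes) with adjusted p under 0.05 that was higher (red, upward) or lower (blue, downward) than untreated cells in the 6 treated groups, for the 79 ribosomal protein genes, 4 other lists and all tested genes. The ribosomal protein genes are higher in 93.7% at 4 h of H2O2 and 12.7% at 4 h of NCS, and the ribosome biogenesis factors are mostly lower at 24 h of both.

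Among 13 regulators of these mRNAs, MYC, which activates ribosomal protein genes, separated the drugs at 4 h. It was at 10.87, 10.94 and 10.93 in untreated cells, 11.15, 11.08 and 11.15 after H2O2 and 10.55, 10.58 and 10.52 after NCS, with no overlap of the groups and a log2 difference of 0.58 between the drugs (SE 0.034, adjusted p = 2.38e-10, limma). MTOR was lower at 4 h of H2O2 (-0.37, SE 0.029, adjusted p = 6.55e-09) and at 8 h (-0.28), and EIF4EBP1, an mTORC1 target that restrains translation, was higher at 8 h (0.60) and 24 h of H2O2 (0.64). In all, 3 of the 13 regulators rose and 5 fell at 4 h of H2O2 (26.2% and 19.7% of all genes). At 4 h of NCS 1 rose and 4 fell (7.47% and 9.72% of all genes), and the shares at later times are those given above. At 8 h 5 rose and 2 fell with H2O2 and 2 rose and 4 fell with NCS, and at 24 h 3 rose and 5 fell with H2O2 and 2 rose and 6 fell with NCS.

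Processed pseudogenes share sequence with the family, and 24 of them varied. At 4 h of H2O2 10 of the 24 were higher and 1 lower, with a median of 0.086, beside 26.2% and 19.7% of all genes. At 24 h 8 of the 24 were higher with H2O2, beside 20.2% of all genes, and 5 with NCS, beside 19.6%. The count at 24 h of NCS was thus near the share of all genes. Signs of RNA quality from mitochondrially encoded genes could not be read, because 0 of those symbols are listed. Members of the family varied little within a group, with a median SD of 0.036 and a highest of 0.20 over 3 libraries.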

How the data were processed

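The libraries were made from hTERT-HPNE cells with a stranded mRNA kit, and per the labels and the study's methods the authors aligned reads with HISAT2 to hg19, counted them with htseq-count and passed the counts to DESeq2 in Galaxy. Tool versions and the gene annotation are not given in the sources used here. The deposited values are the authors' rLog values, log2 counts scaled to library size and shrunken toward each gene's mean, which understates changes of low genes. The deposited table holds no counts, so depth and counting error are unknown. Columns of other samples were absent.

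From these values limma 3.58.1 (R 4.3.3, lmFit and eBayes with trend) was fitted to 7 group means over 21 libraries and 19694 varying genes, with Benjamini-Hochberg adjustment over all of them, and was first tested on simulated data. A gene was called at adjusted p under 0.05, by direction. Single within-library differences were compared by two-sided exact permutation tests (Python 3.11.15, numpy 2.4.6). Members, gene lists and tests were chosen with earlier results of these data known. Named genes were the paralogues and their partners, stalk, MDM2-binding and a few other fixed genes, and in each comparison up to 5 called genes with the largest difference in each direction and groups that do not overlap (3 for other lists). RPL21 and RPL41 were added because they were in small counts. Alternatives were other scalings, a mean rLog of at least 5, no variance trend, only the groups compared, a replicate block and leaving out each library. RefSeq start windows (GRCh38.p14) were matched by symbol. The study's replicates are biological, and p-values measure the spread between these libraries. A few genes are counted but not reported by name here.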

Additional observations from a re-analysis of the deposited data

Results flagged for a closer look

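The difference between the drugs changed with time. The change was called in the interaction test (limma, adjusted p under 0.05). The H2O2 minus NCS difference was smaller at 24 h than at 4 h in 32 of the 79 ribosomal protein genes. It was larger in 0 of them. Over all varying genes it was smaller in 22.7% and larger in 16.6%. Over the other genes with a mean rLog of at least 10 it was smaller in 30.3% and larger in 25.2%. Among the genes named throughout, the change was -0.18 in RPS27L, -0.14 in RPS27, -0.18 in RPL39, -0.18 in RPLP2, -0.12 in RPL5 and -0.13 in RPL11. It was -0.18 in RPL23, -0.13 in RPL26, -0.13 in RPS6, -0.11 in RPS4X and -0.030 in RPL3L, a gene near no reads. In RPS27L the H2O2 minus NCS difference went from 0.035 at 4 h to -0.14 at 24 h, and in RPL5 from 0.16 to 0.041. After quantile normalization the H2O2 minus NCS difference went down in 6 genes and up in 5.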

How the results depend on the processing

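The rise at 4 h of H2O2 kept its direction and its count within 1.5 times under every alternative, with a median of the family from 0.12 after quantile normalization to 0.18, and so did the count of genes higher than with NCS at 4 h. Medians of the family moved by more than the spread between replicates with quantile normalization in 5 comparisons: to 0.13 from 0.086 at 24 h of H2O2, to 0.078 from 0.11 and to 0.061 from 0.018 for H2O2 against NCS at 4 h and 24 h, to -0.0050 from -0.074 for 24 h against 4 h of H2O2, and to -0.017 from -0.097 in the interaction, which was -0.065 with the medians of abundant genes aligned. No call count changed by over 1.5 times without the variance trend. With library medians aligned, lower genes numbered 4 at 24 h of H2O2, higher genes 2 at 8 h of NCS, 0 for H2O2 against NCS at 24 h and 31 for NCS 24 h against 4 h, and the interaction was lower in 49. With quantile normalization, 14 genes were higher at 8 h of NCS and 4 lower at 24 h, and H2O2 was lower than NCS in 1 gene at 4 h, higher in 29 and lower in 1 at 8 h, and higher in 23 and lower in 3 at 24 h. In that scaling 12 genes were higher and 12 lower at 24 h than at 4 h of H2O2, and the interaction was higher in 5 and lower in 6. With the medians of abundant genes aligned, 47, 37 and 52 genes were higher at 4, 8 and 24 h of NCS and 1 was lower at 8 h, H2O2 was lower than NCS in 1 gene at 8 h and higher in 9 and lower in 4 at 24 h, 2 genes rose from 4 h to 24 h of H2O2, and the interaction was higher in 1. With a mean of at least 5, 1 gene was lower at 8 h of H2O2, 10 were higher at 8 h of NCS, and H2O2 was lower than NCS in 1 gene at 8 h and higher in 4 at 24 h. With only the groups compared, 38 genes were higher at 8 h of H2O2, 4 at 4 h and 3 at 8 h of NCS, and H2O2 was higher than NCS in 18 and lower in 1 at 8 h and higher in 1 at 24 h. The replicate numbers did not pair the libraries (correlation of same-numbered deviations from -0.15 to 0.21), and with the replicate block H2O2 was higher than NCS in 4 genes at 24 h and no other count moved by over 1.5 times. Taken against the median of the other ribosomal protein genes in place of RPS27, RPS27L was higher by 0.55 at 24 h of H2O2 and 0.70 at 24 h of NCS, and by 0.47 and 0.54 than at 4 h of the same drug. The causes were not tested.

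Without single libraries, counts against untreated cells ranged from 28 to 49 higher at 24 h of H2O2, 0 to 1 lower at 8 h of H2O2, 2 to 15 higher and 0 to 1 lower at 4 h of NCS, and 1 to 9 higher and 1 to 2 lower at 8 h of NCS. H2O2 was higher than NCS in 28 to 59 genes at 8 h and in 0 to 3 at 24 h, where it was lower in 2 to 5. From 4 h to 24 h, 1 to 2 genes rose with H2O2, and with NCS 11 to 17 rose and 2 to 9 fell. Directions of single genes reversed in 2 scalings. With abundant medians aligned, RPL3L was at 0.041, 0.033 and 0.022 at 24 h of H2O2, 4 h of NCS and 24 h of NCS, and at 0.0014 in the interaction. With quantile normalization, RPL5 was at -0.072 and RPS4X at -0.0048 at 24 h of NCS, and at -0.071 and -0.012 against 4 h. RPL3 was at 0.12 and RPS4X at 0.11 for H2O2 against NCS at 24 h, RPS27 at 0.096 and RPLP0 at 0.15 for 24 h against 4 h of H2O2, and the interaction was 0.16 in RPLP0, 0.052 in RPL5 and 0.036 in RPS4X. Depth is unknown, which limits what can be said of RPL3L, RPL21 and other weakly detected genes.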
